A study of Mus musculus with 3 samples.

Results

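B16 cells, an established mouse melanoma line, were compared after 4 h with 1 µg/ml doxorubicin and at 0 h, the start of the treatment. The comparison rests on 2 arrays, those titled 0 h and 4 h, of the 3 Affymetrix Mouse430_2 arrays of the series, and values of the 2 h array are given beside them. Each time point had 1 array of total RNA, so there is no spread between cultures to set a difference against, and nothing was tested. No untreated culture at 4 h was analysed here, and the 4 h array was hybridised 94 minutes after the 0 h array on another fluidics module. Drug, time in culture and array run therefore cannot be told apart. The labels disagree on the sample: titles and source names gave B16 cells, the description field gave murine BMDM, commonly short for bone marrow-derived macrophages, and the treatment appears both as doxorubicin and as an unexplained "ET". A signal of 200 or more was reached by 15 of 16 pigment cell markers at 0 h and by 14 at 4 h, but by 7 and 5 of 24 macrophage markers. The median signal of the pigment cell markers was 5280 at 0 h and 1100 at 4 h, and that of the macrophage markers 100 and 149. The summed pigment cell signal was 212000 and 231000, and of the 13 pigment cell markers that passed the filter 9 lay within 2-fold and 4 were lower. In bulk RNA, fewer cells of a type and less RNA per cell cannot be told apart.

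The anthracycline doxorubicin slips between the bases of DNA and holds topoisomerase II on the strands it has cut. It also displaces histones from chromatin, and DNA breaks activate the kinases upstream of p53. In mammalian cells the mRNAs of transcription factors, signalling inhibitors and cell cycle regulators are often short-lived, and those of ribosomal, mitochondrial and cytoskeletal proteins long-lived. Neither synthesis nor decay of mRNA was measured here.

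At 4 h, mRNAs for many regulators were at least 2-fold lower, and those for ribosomes, the proteasome and energy supply, most of them bright, mostly lay within 2-fold of 0 h. Among 9723 named genes that passed a signal filter, 1396 (14.4%) fell short of 0 h by 2-fold or more, 226 (2.32%) exceeded it by 2-fold or more, and 8101 (83.3%) lay within 2-fold. A difference of 4-fold or more was found in 301 lower genes (3.1%), 60 of them lower by 8-fold or more, and in 14 higher genes (0.144%). Signals are in array units after each array was scaled to a trimmed mean of 500. A ratio is log2 of the 4 h over the 0 h signal, with signals under a floor of 100 set to 100. For 113 of the lower genes the 4 h signal was under that floor, so their fold is a lower bound.

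The split between lower and higher genes depended on how the arrays were scaled. Over all genes the log2 ratio had a median of -0.07, against 0.24 with arrays scaled to equal medians of passing probe sets, 0.05 with quantile normalization and -0.39 with scaling to hybridization spike-ins. In that order the alternatives gave 872 lower and 724 higher genes, 991 and 431, and 2206 and 65. Lower genes made up 86.1% of those past 2-fold in the main scaling, and 54.6%, 69.7% and 97.1% in the alternatives.

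Low ratios were also more common among dim genes. Of the 2431 dimmest genes 21.4% were at least 2-fold lower, of the next groups of like size 21.1% and 11.9%, and of the 2431 brightest 3.0%. The median log2 ratio was -0.29 in the dimmest group and 0.28 in the brightest. The mean signal that ranks the genes includes the 4 h array, so a gene that is low at 4 h is also ranked dimmer. A small share of lower members in a list of bright genes is therefore compared with 3.0%, or with the 7.45% of the 4861 brighter genes, rather than with the 14.4% of all genes.

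**Figure D1:**
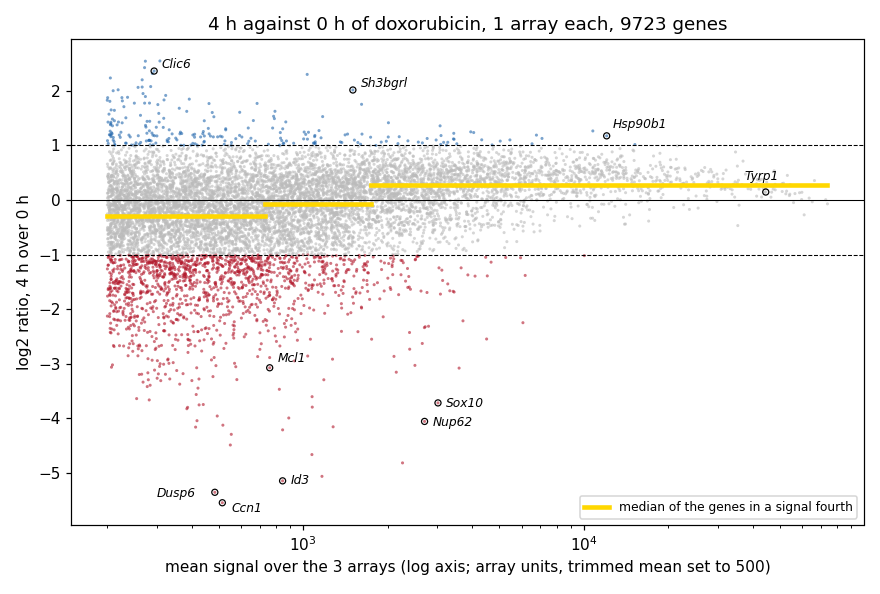
Log2 ratio of 4 h over 0 h (y axis) against the mean signal over the 3 arrays (x axis, log scale) for 9723 genes, each a point. Red points are at least 2-fold lower, blue points at least 2-fold higher, dashed lines mark 2-fold, and yellow bars mark the median of each of 4 groups of genes by signal, from -0.29 to 0.28.

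Different probe sets of a gene gave the nearest thing to a repeat measurement. They share the culture, the RNA and the array, and can read different transcripts, so their spread leaves out variation between cultures. Across 3905 genes with at least 2 passing probe sets, the log2 ratios of the brightest and the next brightest probe set had a Pearson r of 0.65 and a Spearman coefficient of 0.64. Genes are not independent replicates, and these values only describe the arrays. The pooled SD between probe sets of a gene was 0.48 over all genes, 0.69 in the dimmest group and 0.38 in the brightest.

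Lower calls were repeated by a further probe set more often than higher calls. Where the brightest probe set was at least 2-fold lower (480 genes), the next one was also at least 2-fold lower in 274 (57.1%) and lower by any size in 440. Over all 3905 genes the next probe set was at least 2-fold lower in 13.9%. Where the brightest was at least 2-fold higher (70 genes), the next one was so in 19 (27.1%), against 3.46% over all. Probe sets whose names end in _x_at, which can bind several transcripts, were lower in 8.65% and higher in 5.14%, against 15.2% and 2.37% of probe sets without a suffix.

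**Figure D2:**
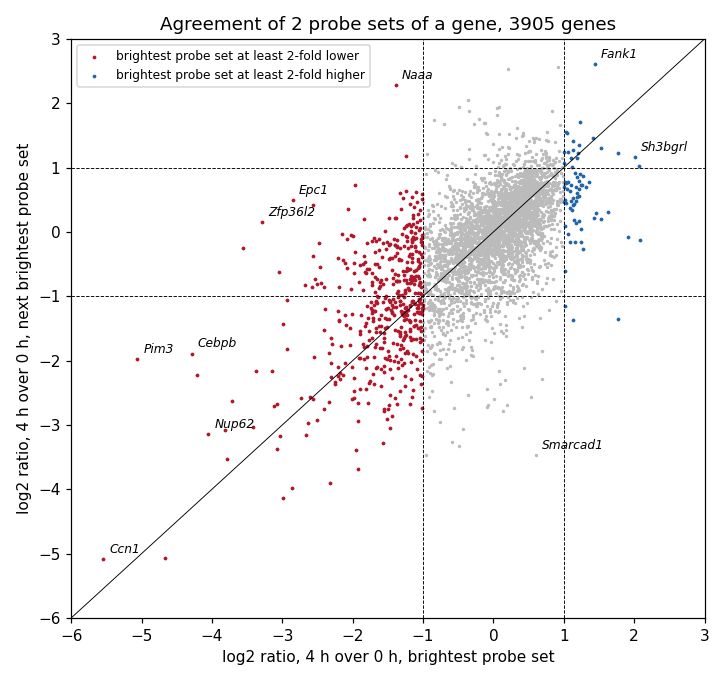
Log2 ratio of 4 h over 0 h for the brightest (x axis) and the next brightest (y axis) passing probe set of 3905 genes. Red and blue mark genes whose brightest probe set is past 2-fold, the diagonal marks equal ratios, and the next probe set is also at least 2-fold lower for 274 of the 480 red genes.

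The lower genes with the most agreement between probe sets came from several systems of the cell. In 217 genes with at least 2 passing probe sets and signals above the floor on both arrays, each probe set was at least 2-fold lower, and 43 of these genes had 3 or more. Mcl1, a short-lived inhibitor of apoptosis of the Bcl-2 family, had a signal of 2331 at 0 h, of 676 at 2 h and of 277 at 4 h. Its 6 probe sets lay between -3.46 and -2.22 on the log2 scale. Nup62, a channel protein of the nuclear pore, had signals of 9196, 3892 and 554, with 4 probe sets from -4.05 to -2.41. Both mRNAs were lower at 4 h than at 2 h.

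Arf6, a small GTPase of endocytosis and membrane recycling, had signals of 6430, 3085 and 789. Zfand5, a zinc finger protein linked to the proteasome, had signals of 5448, 2288 and 749, and its 4 probe sets ranged widely, from -3.99 to -1.36. Rgs16, which shortens signalling by G proteins, was already low at 2 h, with signals of 1340, 141 and 212. The adaptor gene Crkl, the kinase gene Dyrk1a and Cnot2, a subunit of the main deadenylase complex, had median log2 ratios over their probe sets of -2.11, -2.09 and -2.05. These genes are among the 15 lowest by that median, ranked only among genes with 3 or more probe sets, all past 2-fold. Others of the 15 were Cdca4 (-2.60), Ints5 of the Integrator complex (-2.32), Lpcat1 of phospholipid synthesis (-2.27) and Phf20 (-2.20). The melanocyte factors Sox10, Pax3 and Tfap2a completed the 15 and are described with the pigment cell genes.

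A further 7 genes with at least 2 passing probe sets, all of them at least 2-fold lower, were under the floor at 4 h. Zfp574, a zinc finger gene, had signals of 1067, 201 and 21.4, at least 10.7-fold lower. Dusp7, a phosphatase that inactivates ERK, was at least 10.3-fold lower from a signal of 1035. Irf2bpl was at least 8.66-fold, Zfp213 at least 7.64-fold, the kinase gene Stk35 at least 4.94-fold, the scaffold gene Magi3 at least 4.59-fold and Ppm1d, a phosphatase that ends the DNA damage response, at least 4.53-fold lower. These mRNAs had 0 h signals from 453 to 1067, so larger differences could not be measured.

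Fewer genes were past 2-fold higher in each of their probe sets. Among genes with at least 2 passing probe sets above the floor, 14 had all of them at least 2-fold higher, and 1 of these, Sh3bgrl, had 3. Sh3bgrl, which encodes a small thioredoxin-like protein, had signals of 793, 1332 and 3207, with probe sets from 1.16 to 2.02 on the log2 scale. Adh7, an alcohol dehydrogenase that also oxidises retinol, had signals of 2519, 4445 and 5932. Idi1, an isomerase of the isoprenoid pathway, had signals of 789, 1002 and 1626, and Glrx, glutaredoxin, 217, 440 and 502. All 4 were higher at 4 h than at 2 h.

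Selenok, a selenoprotein of the endoplasmic reticulum, and Lamtor5, a subunit of the lysosomal Ragulator complex, had median log2 ratios of 1.12 and 1.04. Nsa2, a factor of ribosome assembly, stood at 1.15, and Scoc, a regulator of autophagy, at 1.17. The remaining 6 were Fank1 (2.02), Tctex1d2 (1.42), Clvs1 (1.29), Ypel5 (1.27), Dpy19l1 (1.21) and Yipf6 (1.13).

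In 8 genes the probe sets disagreed most, and for these the gene's ratio depends on the probe set chosen. For Smarcad1, a chromatin remodeller, one probe set had signals of 3088, 3968 and 4683 and the other 1309, 299 and 118. Their log2 ratios were 0.60 and -3.47. Naaa, a lysosomal amidase, stood at -1.39 by one probe set and at 2.29 by the other. Zfp36l2, which binds AU-rich elements and promotes mRNA decay, had signals of 3838, 1102 and 392 by one probe set and 258, 113 and 287 by the other. For the survival kinase Pim3 the 3 probe sets stood at -5.06, -1.97 and -0.33, the last from a 0 h signal of 273. Epc1 had -2.85 and 0.50, Notch2 -2.56 and 0.41, Bcar3 -2.79 and 0.13, and Cdc14b -2.29 and 0.69. Whether these pairs read different transcripts was not tested.

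Gene lists were then counted by cell function, and the share of members past 2-fold was set beside that of all genes. Of 64 lists, 30 had a larger share of lower members than the 14.4% of all genes, and 5 had no lower member. No list was tested, since each time point had 1 array. The counts also moved with the scaling: the number of lower members differed by more than 1.5 times from the main one in 26 lists with equal medians, in 14 with quantile normalization and in 36 with spike-in scaling.

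**Figure D3:**
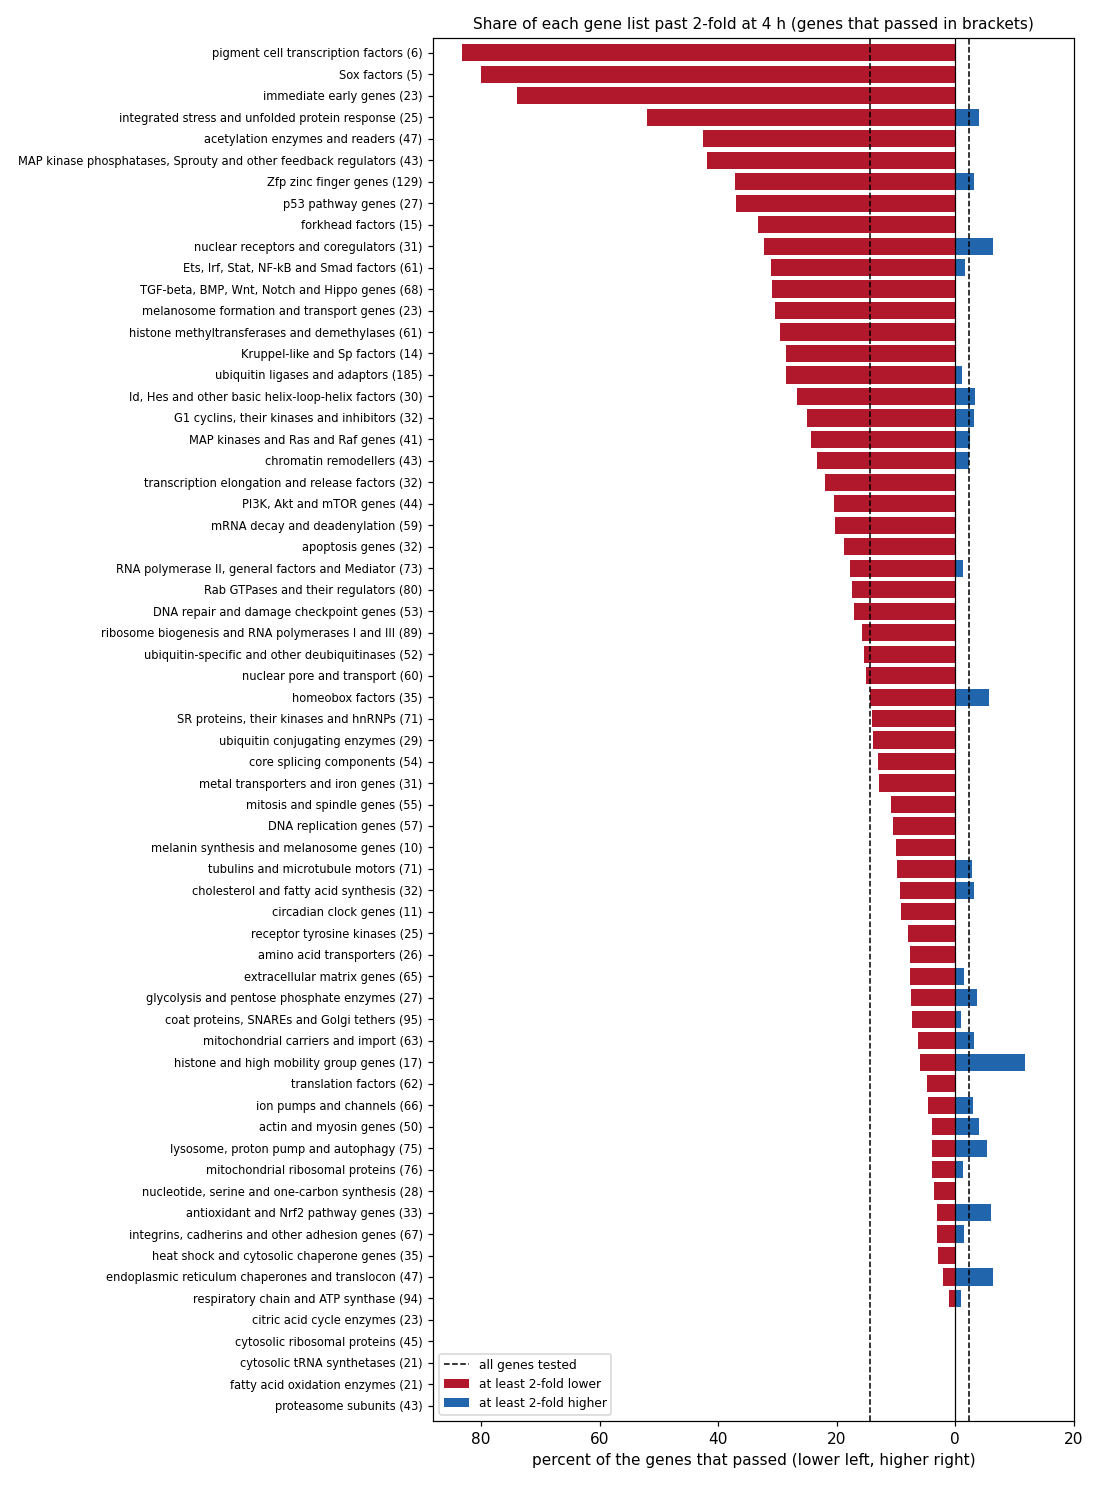
Percent of the passing genes of each of 64 lists that were at least 2-fold lower (red, to the left) or at least 2-fold higher (blue, to the right) at 4 h. Dashed lines mark 14.4% and 2.32% of all 9723 genes, and the shares run from 83.3% lower among pigment cell transcription factors to 0 in 5 lists that include the proteasome and the cytosolic ribosomal proteins.

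Many transcription factor families had shares of lower members above the 14.4% of all genes. Of 23 passing immediate early genes, which are induced by growth factors without new protein synthesis, 17 were at least 2-fold lower and none was higher. Ccn1, a matricellular protein gene, had signals of 5477, 212 and 117, and Ier3, a regulator of survival, 3095, 388 and 138. Maff, a small Maf factor, was the highest member at 918, 1357 and 1798. Ccn1 and Ier3 were thus near the floor by 4 h, and Maff was 1.96-fold higher.

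Among 30 factors of the Id, Hes and basic helix-loop-helix families, 8 were lower and 1 was higher. Id3, an inhibitor of these factors, had signals of 6002, 588 and 170, and Id2 5358, 1090 and 212. Mycn, the brightest member, had 16533, 15373 and 16274, whereas Myc, chosen after its values were seen, had 1613, 109 and 128. The 2 Myc family members therefore differed, at a log2 ratio of -0.02 for Mycn and -3.66 for Myc. Mxd4, a Max partner that opposes Myc, had a log2 ratio of 1.92 by one probe set and -0.07 by the other.

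Of 61 Ets, Irf, Stat, NF-kB, Smad and E2f factors, 19 were lower and 1 was higher. The lowest were E2f8 (968, 549 and 178) and E2f7 (1293, 582 and 289), the repressors of the E2F family, and the brightest, Ets1, had 6930, 5847 and 5271. Of 129 zinc finger genes named Zfp, 48 were lower (37.2%) and 4 were higher. The brightest, Zfp622, had signals of 5752, 3982 and 1789 and probe sets at -1.79 and -1.68 on the log2 scale. Nuclear receptors and their coregulators were lower in 10 of 31, forkhead factors in 5 of 15, and Krüppel-like and Sp factors in 4 of 14. Homeobox factors were lower in 5 of 35 (14.3%), near the share of all genes, and higher in 2. Among members in the brighter 4861 genes, 6 of 22 Ets to E2f factors, 4 of 19 Zfp genes, 4 of 16 Id to helix-loop-helix factors and 1 of 4 immediate early genes were lower, against 7.45% of all genes in that range. None of 4 nuclear receptors and coregulators, 3 forkhead factors and 3 Krüppel-like and Sp factors there was lower, so those families had their lower members among dim genes.

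Sequences upstream of 6 genes are shown as examples of core promoter elements in genes with large ratios. They include 3 with a TATA box and 3 with CCAAT boxes but no TATAAA. They are the 120 bases before a start site in RefSeq's GRCm38.p6, read 5′ to 3′ on the gene's strand, with TATAAA and CCAAT on either strand in capitals (the complement of CCAAT reads ATTGG). Ccn1 lies at chr3:145649986-145650105 (minus strand), Fos at chr12:85473770-85473889 (plus strand), Btg1 at chr10:96616881-96617000 (plus strand), Herpud1 at chr8:94386309-94386428 (plus strand), Hsp90b1 at chr10:86705445-86705564 (minus strand) and Pdia4 at chr6:47813513-47813632 (minus strand).
Ccn1: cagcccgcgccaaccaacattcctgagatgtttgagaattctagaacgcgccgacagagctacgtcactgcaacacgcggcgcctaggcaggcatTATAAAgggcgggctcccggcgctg
Fos: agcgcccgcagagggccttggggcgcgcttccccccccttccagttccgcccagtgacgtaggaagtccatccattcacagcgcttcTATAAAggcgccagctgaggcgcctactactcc
Btg1: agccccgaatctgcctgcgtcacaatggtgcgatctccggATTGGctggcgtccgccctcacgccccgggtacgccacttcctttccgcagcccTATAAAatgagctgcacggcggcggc
Herpud1: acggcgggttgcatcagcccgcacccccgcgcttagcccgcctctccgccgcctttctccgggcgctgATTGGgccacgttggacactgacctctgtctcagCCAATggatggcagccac
Hsp90b1: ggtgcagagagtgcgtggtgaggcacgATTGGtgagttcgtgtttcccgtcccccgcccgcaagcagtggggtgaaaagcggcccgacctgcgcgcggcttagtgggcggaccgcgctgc
Pdia4: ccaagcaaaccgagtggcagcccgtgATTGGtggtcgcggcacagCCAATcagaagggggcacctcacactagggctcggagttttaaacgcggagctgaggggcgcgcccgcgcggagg
The first 3, with a TATA box at -25, -33 and -26 relative to the start, belong to genes that were 46.6-fold, 3.25-fold and 14.1-fold lower at 4 h. Herpud1, with a CCAAT box, was 7.94-fold lower, whereas Hsp90b1 and Pdia4, also with CCAAT boxes, were 2.26-fold and 2.14-fold higher. Fos and Pdia4 were chosen after their values were seen.

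Over all promoters, the share with a TATA box was close to that of all genes tested, while the shares of some other elements, such as the GC box, differed by more. In windows from 250 bases before to 50 after the start, on both strands, TATAAA was found in 8.1% of 321 promoters of genes at least 4-fold lower, in 8.37% of 251 promoters of genes at least 2-fold higher and in 7.41% of 10167 promoters of all genes tested. The table held promoters for 246 of the 301 and 187 of the 226 genes. The cyclic AMP response element TGACGTCA was found in 3.12%, 0.797% and 3.07%, and the AP-1 element TGANTCA in 6.85%, 7.57% and 5.05%. The CArG box, by name, was found in 0.935%, 0.797% and 1.32%. Shares under 1% rest on very few promoters. The CCAAT box was found in 38.6%, 46.2% and 37.3%, and the E-box CACGTG in 5.92%, 9.56% and 10.1%. The GC box GGGCGG was found in 70.7%, 50.6% and 62.7%, where the GC content was 62.8%, 59.3% and 60.9%. A match describes the letters and is neither a binding site nor a cause.

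Most pigment cell transcription factors were at least 2-fold lower, and most melanin and melanosome genes, many of them bright, lay within 2-fold. Melanocytes make melanin in melanosomes with enzymes of the tyrosinase family, under the control of the factor Mitf and its partners Sox10 and Pax3. Sox10 had a signal of 11710 at 0 h, of 2640 at 2 h and of 892 at 4 h. It was 13.1-fold lower, and its log2 ratio was -3.71 with an SD of 0.82 between 3 probe sets. Mitf had signals of 6576, 2031 and 739 and was 8.89-fold lower. Tfap2a, which acts with Mitf, had signals of 2159, 422 and 441, and Pax3 1588, 762 and 465. Of 6 passing pigment cell factors 5 were at least 2-fold lower, in the 5 cases with the same sign in each of their 2 or 3 probe sets.

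Most of the listed genes of melanin synthesis and the melanosome did not show such ratios. Of 10 passing members, 1 was lower and 9 lay within 2-fold. The brightest group, where 3.0% of all genes were lower, held 7 of the 10, 1 of them lower. The list median was 0.22 on the log2 scale, 0.53 with equal medians, -0.05 with quantile normalization and -0.10 with spike-in scaling. Whether the factors and these genes differ beyond their brightness was not tested. Tyrp1, a melanosomal enzyme, had signals of 42568, 44083 and 47128, Pmel, the fibril protein, 35665, 46371 and 45805, and Gpnmb, a melanosomal glycoprotein, 33982, 48216 and 44063. Mc1r, the receptor for melanocyte-stimulating hormone, was the lower member, at 3976, 2200 and 1196, and both its probe sets agreed within 0.05 (SD). Trpm1, a channel gene and host of a microRNA, had 1622, 1164 and 996. Of 5 passing Sox genes 4 were lower, Sox10 among them, with Sox4 at 6222, 2800 and 1254 and Sox6 at 818, 448 and 336. One of the 6 probe sets of Sox4 missed 2-fold, at -0.92. Sox21 rested on 1 probe set with signals of 1418, 89.9 and 1611, a dip at 2 h that no further probe set could check.

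Melanosome formation and transport genes were lower in 7 of 23 (30.4%, against 14.4% of all genes). Among their 10 brighter members 3 were lower, against 7.45% of all brighter genes. The count of 7 became 4 with equal medians, 5 with quantile normalization and 8 with spike-in scaling. Rab38, a GTPase that delivers enzymes to melanosomes, had signals of 8401, 6218 and 4038, Bloc1s4 of the BLOC-1 complex 1141, 647 and 361, and Lyst, a lysosomal trafficking regulator, was at least 5.14-fold lower. Myo5a, the motor that carries melanosomes along actin, had 430, 485 and 826.

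**Figure D4:**
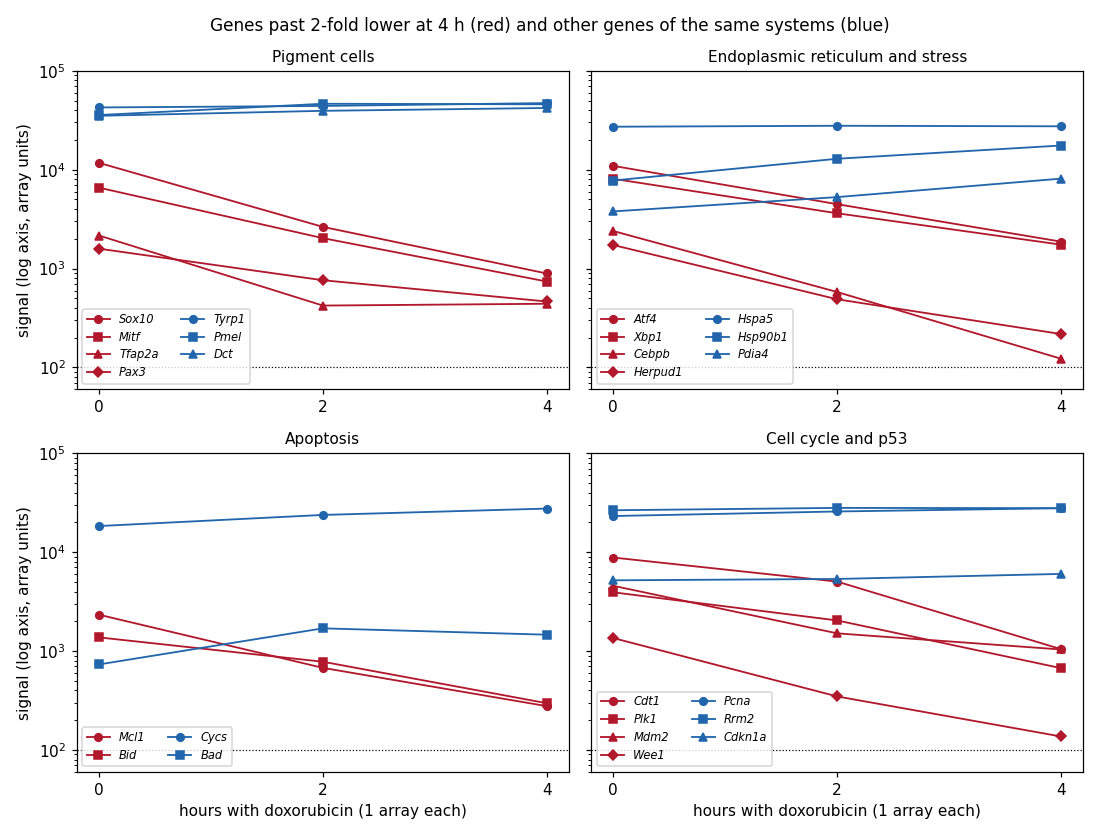
Signals at 0, 2 and 4 h (log axis, 1 array each, no error bars) of genes at least 2-fold lower at 4 h (red) and of other genes of the same systems (blue). Values under the dotted floor of 100 are drawn at the floor, and Sox10 goes from 11710 to 892 while Tyrp1 goes from 42568 to 47128.

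Chromatin enzymes included many lower members, few of them in the brightest group of genes. Of 47 acetyltransferases, deacetylases and acetyl readers, 20 were lower (42.6%) and none was higher, and all 10 of the lower ones with several probe sets had the same sign in each. The lowest were Ing2, at least 6.33-fold lower, and Tada2b, an adaptor of acetyltransferase complexes (956, 437 and 180). Among those chosen after their values were seen, Ep300 and Crebbp, the paired coactivators p300 and CBP, had 1336, 719 and 364 and 792, 608 and 227, and Brd2, which reads acetylated histones, 3979, 2745 and 1282. Of 61 histone methyltransferases and demethylases 18 were lower, led by Kmt2d, a methyltransferase of enhancers (964, 435 and 139), and Jarid2 of the Polycomb complex PRC2 (896, 407 and 181). Prmt1, the main arginine methyltransferase, had 12240, 15401 and 14132.

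Of 43 chromatin remodellers 10 were lower and 1 was higher. Arid1a, a subunit of the BAF complex, had signals of 1743, 1194 and 594, while Smarca4, its motor subunit, had 4379, 4781 and 4216. Of 17 histone and high mobility group genes 1 was lower and 2 were higher. Hmga2, an architectural protein, had 3784, 1623 and 1194, with 3 probe sets within 0.06 (SD), and Hmgn3 and Hmgn5, nucleosome-binding proteins, were 2.28-fold and 2.81-fold higher, with the other probe set of Hmgn3 at 0.85. In the brightest group, where 3.0% of all genes were lower, this held for 1 of 8 acetylation genes, 0 of 9 methylation genes, 0 of 13 remodellers and 1 of 10 histone and high mobility group genes. Among the brighter 4861 genes 6 of 25 acetylation genes, 4 of 23 methylation genes and 4 of 25 remodellers were lower, against 7.45%. The difference between enzymes and histones was not tested.

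Within the apparatus of RNA polymerase II, some Mediator subunits and a general factor were low, while the polymerase subunit Polr2g was not. Of 73 genes of RNA polymerase II, the general factors and Mediator, 13 were lower (17.8%) and 1 was higher. Med22 and Med18, subunits of the Mediator head, had signals of 775, 623 and 122 and of 823, 1353 and 134. Polr2g, a subunit of the polymerase, had 8873, 11514 and 13094, and Taf13 of TFIID 700, 1139 and 2019. Tbp, the TATA-binding protein, chosen after its values were seen, had 999, 577 and 279. Among the 47 brighter members 2 were lower (4.26%), below the 7.45% of all brighter genes.

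Elongation and release factors were lower in 7 of 32 (21.9%, against 14.4% of all genes). Among their 18 brighter members 1 was lower (5.56%), below the 7.45% of all brighter genes. The count of lower members was 4 with equal medians, 5 with quantile normalization and 13 with spike-in scaling. Cdk9, the kinase of P-TEFb that frees paused polymerase, had signals of 4685, 3045 and 1981, Cdk12, which sustains elongation, was at least 6.37-fold lower by one of its 3 probe sets and at -0.92 and -0.82 by the others, and Tcea1, the factor TFIIS, had 3341, 3057 and 4729. Core splicing components were lower in 7 of 54 and SR proteins, their kinases and hnRNPs in 10 of 71, both near the background. Lsm8 of the U6 particle had 5248, 3312 and 790, the splicing kinase Prpf4b 1007 at 0 h and 595 at 2 h, 4.30-fold lower at 4 h, and Rbm5 1924, 822 and 486, whereas Snrpf of the Sm ring had 4748, 8071 and 9165 and Hnrnpab 27122, 31068 and 32973. For Prpf4b the probe sets ran from -2.11 to 0.03.

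mRNA decay genes were lower in 12 of 59 (20.3%, against 14.4% of all genes), and the lowest were antiproliferative adaptors of the deadenylase. The count was 4 with equal medians, 7 with quantile normalization and 21 with spike-in scaling. Tob1, which recruits the CCR4-NOT complex, had signals of 1646, 443 and 92.8, and Btg1 1476, 369 and 104. Pum3 was at 6297, 5275 and 7659. Nuclear pore and transport genes were lower in 9 of 60 (15%), near the 14.4% of all genes. Among their 53 brighter members 7 were lower (13.2%, against 7.45%). Nup62 was lowest and Nup153 next (1393, 896 and 299), while the transport GTPase Ran had 32423, 37646 and 33658. Of 89 genes of ribosome biogenesis and RNA polymerases I and III 14 were lower (15.7%), also near the background. Of their 73 brighter members 10 were lower (13.7%). The lower genes included Polr1c, shared by both polymerases (2679, 1891 and 506), and Mphosph10 (1609, 857 and 306). Nucleophosmin (Npm1) had 23930, 20777 and 28709.

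Genes of protein synthesis mostly lay within 2-fold, as did most bright genes. None of 45 cytosolic ribosomal protein genes and none of 21 cytosolic tRNA synthetase genes was at least 2-fold lower or higher. Rpl41 had signals of 73368, 78833 and 69916, and Nars, the asparaginyl-tRNA synthetase, 7454, 9502 and 12737. Their list medians were 0.28 and 0.21 on the log2 scale, beside 0.28 for the brightest group of genes. That group held 42 of the 45 and 19 of the 21, and with 3.0% of it lower, counts of 0 are near what bright genes show. Of 76 mitochondrial ribosomal protein genes 3 were lower and 1 was higher, and of 62 translation factors 3 were lower, all 3 among the 43 in the brightest group. They were Eif5, a GTPase activator of initiation (6722, 2550 and 2842, with 2 of its 5 probe sets past 2-fold), the helicase Eif4a2 (8208, 3330 and 3731) and Eif4b, which was not chosen by the naming rule (7540, 5337 and 3637). Eef1a1, the main elongation factor, had 71018, 76346 and 71340.

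In protein turnover, a larger share of ubiquitin ligases than of all genes was lower, and no proteasome subunit was. Ubiquitin ligases select proteins for destruction, and the proteasome degrades them. Of 185 ligases and adaptors 53 were lower (28.6%) and 2 were higher, and 23 of the 24 lower ones with several probe sets had the same sign in each. Among the 74 brighter members 15 were lower (20.3%), against 7.45%. Rnf146, a ligase of poly-ADP-ribosylated proteins, had signals of 1297, 471 and 170, with probe sets from -2.93 to 0.17, and Fbxl14 was at least 9.69-fold lower. Of 43 proteasome subunits none was past 2-fold, where 34 are in the brightest group with its 3.0%. Psmb7 had 15458, 19364 and 19622, and the extremes were the ATPase Psmc1 at 0.86 and the assembly chaperone Psmd5 at -0.84. Deubiquitinases were lower in 8 of 52 and conjugating enzymes in 4 of 29, near the background.

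Most energy metabolism genes lay within 2-fold, and many of them were bright. Of 94 genes of the respiratory chain and ATP synthase, 1 was lower and 1 was higher, and 76 were in the brightest group, none of these lower. Cox11, an assembly factor that delivers copper to cytochrome oxidase, had signals of 921, 511 and 212, and Atp5md, a small subunit of ATP synthase, 4007, 3760 and 8468. None of 23 citric acid cycle enzymes or 21 fatty acid oxidation enzymes was past 2-fold, their medians were both 0.43, and 19 and 12 of them were in the brightest group. Of 27 enzymes of glycolysis and the pentose phosphate path, the 2 lower ones were Pfkfb3, which makes an activator of glycolysis (509, 163 and 157), and Hk2, the inducible hexokinase (2364, 1427 and 788). The higher one was Aldoc, an aldolase, at 126, 312 and 280. Pgk1 had 53205, 59053 and 57745.

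Sterol synthesis was mixed. Sqle, the squalene epoxidase, had signals of 4687, 3344 and 873, and Msmo1, which acts later, 2010, 1736 and 932. Idi1 and Fdps, which act earlier, were 2.06-fold and 1.75-fold higher. Over the 32 genes of cholesterol and fatty acid synthesis 3 were lower and 1 was higher. In the list for nucleotide, serine and one-carbon synthesis 1 of 28 was lower, Mat2b (1631, 1184 and 488).

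Stress response regulators and chaperones of the endoplasmic reticulum had different shares of lower genes, and the chaperones were mostly bright. The integrated stress response and the unfolded protein response raise factors such as Atf4 and Xbp1, which in turn drive chaperones and amino acid synthesis. Of 25 genes of these responses 13 were lower and 1 was higher, the chaperone Hsp90b1. Cebpb, a transcription factor, had signals of 2395, 579 and 122, and Herpud1, a protein of endoplasmic reticulum-associated degradation, 1729, 489 and 218. Atf4 and Xbp1, chosen after their values were seen, had 10918, 4477 and 1871 and 8082, 3622 and 1744, and 3 of the 4 probe sets of Xbp1 were past 2-fold.

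Of 47 endoplasmic reticulum chaperone and translocon genes 1 was lower and 3 were higher. Of the 41 in the brightest group none was lower, against 3.0% of that group, where 1.4% were higher. Hsp90b1, the chaperone GRP94, had signals of 7769, 12891 and 17549, and its 2 probe sets stood at 1.18 and 0.69. Srp9 of the signal recognition particle had 2853, 4635 and 6127, with its other probe set at 0.47, and Pdia4, a disulfide isomerase chosen after its values were seen, 3785, 5279 and 8118. Calr, calreticulin, had 30665, 36089 and 34912 and Hspa5, the chaperone BiP, 27182, 27787 and 27443. Syvn1, the ligase of the same degradation path as Herpud1, was the lower member at 2345, 1466 and 698. The 3 higher members depended on the scaling: 13 were higher with equal medians, 1 with quantile normalization and none with spike-in scaling.

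Cytosolic chaperones were lower in 1 of 35, Dnajb1, a cochaperone induced by heat shock (3284, 1509 and 844), and the constitutive Hspa8 had 42248, 34392 and 30550. Among 33 antioxidant genes 1 was lower and 2 were higher. Txnip, which inhibits thioredoxin, had 909, 310 and 62.6 and was at least 9.09-fold lower. Gpx8 and Gstm1, of the glutathione peroxidase and transferase families, were 2.31-fold and 2.17-fold higher, and ferritin heavy chain (Fth1) had 58495, 62081 and 58881.

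Lysosome, proton pump and autophagy genes were among the few with more higher than lower members, at 4 higher and 3 lower of 75. Gaa, the lysosomal glucosidase, had signals of 1096, 3033 and 2439, with its other probe set at 0.91, and Atg12, a conjugation protein of autophagy, 315, 419 and 657, with its other probe set at -0.03. Sqstm1, an autophagy receptor, had 26103, 27152 and 23569. Higher members numbered 16 with equal medians, 3 with quantile normalization and none with spike-in scaling. In the secretory path, coat, SNARE and tether genes were lower in 7 of 95 (7.37%) and Rab genes in 14 of 80 (17.5%). The share of all genes was 14.4%, so the Rab genes were near the background. Their count was 7 with equal medians, 12 with quantile normalization and 24 with spike-in scaling. Arf6 and Rab33b (at least 9.9-fold lower) were the lowest of the 2 lists, and Arf1 (17415, 19505 and 20505) and Rab1a (13963, 14598 and 16555) the brightest.

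**Figure D5:**
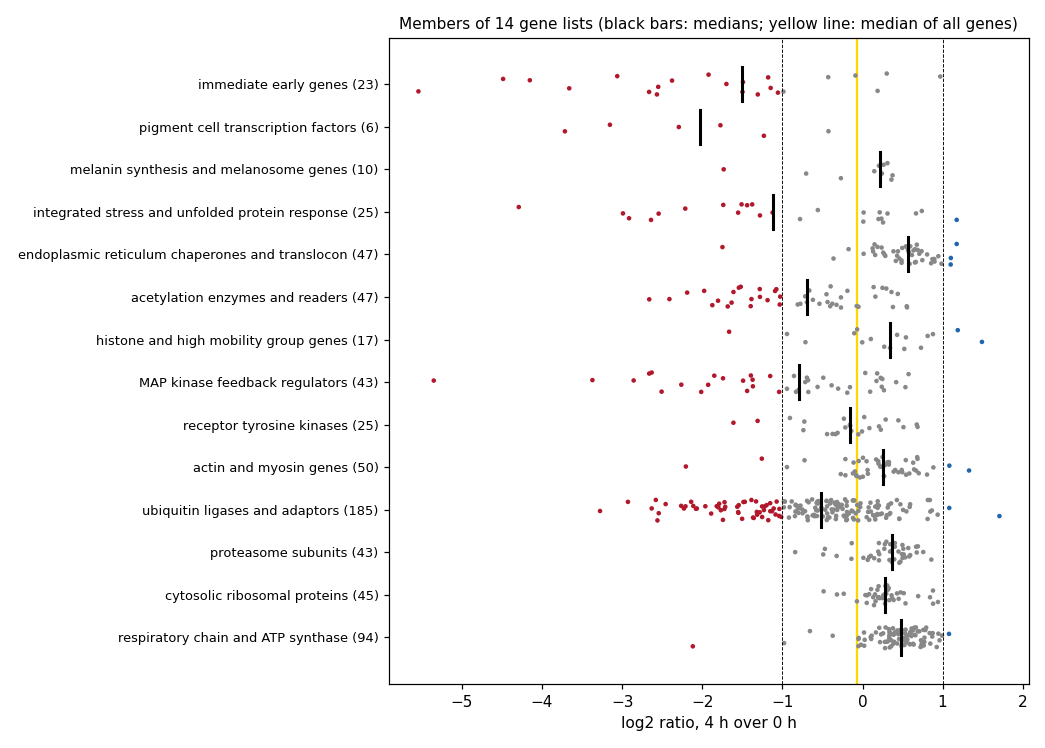
Log2 ratio of 4 h over 0 h (x axis) of each passing member of 14 lists, each a point with random vertical spread. Black bars are list medians, the yellow line is the median of all genes (-0.07), dashed lines mark 2-fold, and the medians run from -2.03 for pigment cell transcription factors to 0.57 for endoplasmic reticulum chaperones.

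Feedback inhibitors of signalling included many lower members. Growth factor signalling through ERK induces its own inhibitors, the dual-specificity phosphatases and the Sprouty and Spred proteins. A wider list held 43 passing genes for MAP kinase phosphatases, Sprouty and other feedback regulators. Of these 18 were lower (41.9%, against 14.4% of all genes), 25 lay within 2-fold and none was higher. The 10 lower ones with several probe sets had the same sign in each. Dusp6, a phosphatase of ERK, had signals of 4301, 250 and 105, and Dusp7 1035, 461 and 91.4. Rgs16 and, chosen after their values were seen, Dusp4 (3616, 617 and 499) and Spry2 (907, 185 and 239) were already low at 2 h.

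The receptors and kinases of the same paths had smaller shares. Receptor tyrosine kinases were lower in 2 of 25, both dim, Ephb4 (at least 3.05-fold) and Alk (2.48-fold), and Erbb3 had signals of 4012, 2900 and 2141. Of 41 MAP kinase, Ras and Raf genes 10 were lower (24.4%, against 14.4% of all genes) and 1 was higher. Among their 20 brighter members 1 was lower (5%), below the 7.45% of all brighter genes. Ksr1, a scaffold of the cascade, had signals of 512, 268 and 104, and Nras 1277, 1840 and 2320. The higher member was Rps6ka6, a kinase of the ERK path, with a log2 ratio of 1.16 and its other probe set at -0.16. Of 44 genes of PI3K, Akt and mTOR signalling 9 were lower (20.5%), and Phlpp1, a phosphatase that acts on Akt, was lowest (1058, 497 and 156). That count was 2 with equal medians, 4 with quantile normalization and 14 with spike-in scaling. Among the 21 brighter members of this list 1 was lower (4.76%), also below 7.45%. Genes of TGF-beta, BMP, Wnt, Notch and Hippo signalling were lower in 21 of 68 (30.9%, against 14.4% of all genes) and higher in none. Among their 25 brighter members 7 were lower (28%, against 7.45%). The count of 21 became 14 with equal medians, 15 with quantile normalization and 33 with spike-in scaling. Ccn1 and Ccn2 (6078, 1004 and 342) were lowest there, and beta-catenin (Ctnnb1) had 19503, 17233 and 20932. Axin1, a scaffold that promotes destruction of beta-catenin, was chosen after its values were seen, at -2.61 with an SD of 0.03 between 2 probe sets.

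Structural genes of the cytoskeleton mostly lay within 2-fold, and 39 of 50 actin and myosin genes, none of the 39 lower, were in the brightest group. Of 50 actin and myosin genes 2 were lower and 2 were higher, and beta-actin (Actb) had 64884, 65255 and 53765. Tpm2, a tropomyosin, was at -2.20 by one probe set and -0.41 by the other. Tubulins and microtubule motors were lower in 7 of 71, adhesion genes in 2 of 67 and matrix genes in 5 of 65. The lowest matrix gene was the protease gene Adamts1 (2235, 646 and 303), and Dynlt3, a dynein light chain, was 2.67-fold higher with 4 probe sets from 0.94 to 1.46.

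Shares of lower members differed between the cell cycle lists, and each list had some. Of 32 G1 cyclins, kinases, inhibitors and E2F factors 8 were lower and 1 was higher, of 57 replication genes 6 were lower, and of 55 mitosis genes 6 were lower. Against the 7.45% of the brighter genes, the shares of brighter members were 21.1% for the G1 list (4 of 19), 6.25% for replication and 8.33% for mitosis. In the brightest group, with its 3.0%, the counts in that order were 2 of 13, 1 of 31 and 3 of 27. Ccnf, which encodes a ligase subunit active in G2, was at least 13.9-fold lower from a signal of 1389. Cdt1, which licenses origins, had signals of 8820, 5037 and 1045, and Slbp, which binds histone mRNA, 3246, 1938 and 610. Wee1 and Plk1, kinases that restrain and promote entry into mitosis, had 1353, 348 and 137 and 3926, 2039 and 671. Wee1 was low at 2 h already and Cdt1 mainly at 4 h. Rrm2, of ribonucleotide reductase, had 26524, 28023 and 27844, and Cks1b 17131, 19580 and 21970. Top2b, a target of the drug, was at 753, 890 and 1377 with probe sets at 0.87 and 0.30.

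No gene of the DNA damage and p53 lists was at least 2-fold higher, against 2.32% of all genes, a share that lists of this size do not resolve. Of 53 repair and checkpoint genes 9 were lower and none was higher, and of 27 p53 pathway genes 10 were lower (37.0%) and none was higher. With equal medians and with quantile normalization 4 repair genes were higher. Plk2, a kinase induced by p53, had signals of 1243, 133 and 31.4, at least 12.4-fold lower. Phlda3, a p53 target that inhibits Akt, had 9533, 6768 and 3661. Among those chosen after their values were seen, Mdm2, the ligase that degrades p53 and is induced by it, had 4568, 1510 and 1037, and the inhibitor Cdkn1a 5190, 5358 and 6026. Ccng1, cyclin G1, was the highest at 3728, 4953 and 6670, with 3 probe sets within 0.08 (SD). Rnf168 and Xpc, which mark breaks and detect distorted DNA, were the lowest repair genes, at 1271, 514 and 373 and 632, 478 and 217, and the checkpoint kinase Atr was the highest, at 206, 207 and 384.

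Of 32 apoptosis genes 6 were lower (18.8%, against 14.4% of all genes). Among the 21 brighter members 2 were lower (9.52%, against 7.45%), so both shares were near the background. The lower genes lay on both sides of the pathway. Mcl1 and, chosen after its values were seen, Bcl2 (1056, 547 and 348, with its next brightest probe set at -0.74) block cell death. Bid (1374, 780 and 297) and Apaf1 (813, 411 and 231), the latter also chosen after its values were seen, promote it. Both probe sets of Bid agreed within 0.02 (SD). Cytochrome c (Cycs), which assembles with Apaf1, had 18368, 23792 and 27588, and Bad, a proapoptotic member, 732, 1697 and 1463.

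Membrane transport genes had shares of lower members from 4.55% to 12.9%, below the 14.4% of all genes, the last one close to it. Amino acid transporters were lower in 2 of 26, ion pumps and channels in 3 of 66, mitochondrial carriers and import genes in 4 of 63, and metal transporters and iron genes in 4 of 31. Slc38a2, which imports neutral amino acids and is induced by Atf4, had signals of 4384, 578 and 237, with probe sets at -4.21 and -2.22. Slc7a1, a transporter of cationic amino acids, had 3058, 1987 and 1502, with 2 of its 3 probe sets past 2-fold, and Slc6a6, the taurine transporter, 11843, 12105 and 9143. Slc39a14, an importer of zinc and iron, had 2344, 1300 and 726, also with 2 of 3 probe sets past 2-fold. By single probe sets under the floor at 0 h, Clic6, a channel-like protein, was higher by at least 5.14-fold and Slc25a53 by at least 4.6-fold.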

How the data were processed

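Per the labels, total RNA from 1 B16 culture sample per time point was hybridised to Mouse430_2 arrays. The authors deposited linear intensities, 1 per probe set, whose trimmed mean was 150.0. The submitters' processing notes name GCOS 1.4 (no signal algorithm is given). Intensities were multiplied to bring every array to a trimmed mean of 500 (2% trimmed from each end), floored at 100 and put on a log2 scale. Probe sets with a mean over the 3 arrays of at least 200, on that scale, were kept. Of 45101 probe sets 34958 carry 1 gene symbol, 932 several and 9211 are unlisted, and symbols of 34754 were updated by Entrez ID to RefSeq (GRCm38.p6). With controls left out, 15785 probe sets of 9723 genes passed, of 18193 genes on the array. The brightest kept probe set stood for its gene.

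With 1 array per time point, genes were counted by size (at least 2-fold) and no test was run. The members and the 64 lists and 5 marker lists were chosen with earlier results of these data known. The number of arrays limits the precision. Genes were named by a rule. It took, by the median over probe sets, up to 15 genes per direction whose 3 or more probe sets (2 where fewer genes qualified) were all past 2-fold, and up to 12 genes under the floor at 4 h with 2 or more probe sets all lower. Clones and predicted genes were left out there. It also took the 8 with the largest SD between probe sets and, in each list, the 2 lowest, the 2 highest and the brightest at 0 h. Other named genes were chosen after their values were seen, and mismatched members were taken out of 3 lists after a first look. One further gene list is not reported here. The counting was tested on simulated data. Alternatives were 3 scalings, floors of 50 and 200, a filter of 400 or none, averaging probe sets, and leaving out suffixed ones. The work ran in Python 3.11.15 with pandas 2.3.3, numpy 2.4.6 and scipy 1.17.1, and figures in matplotlib 3.10.9.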

Additional observations from a re-analysis of the deposited data

How the results depend on the processing

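The count of lower genes was 1396, and 872 with equal medians, 2206 with spike-in scaling and 780 with a filter of 400. The count of higher genes was 226, and 724 with equal medians, 431 with quantile normalization, 65 with spike-in scaling, 405 without a filter and 116 with a filter of 400. A filter of 400 left 6883 genes and no filter 18193. The other alternatives kept both counts within 1.5 times. Of 64 list counts of lower genes, 26 moved by more than 1.5 times with equal medians, 14 with quantile normalization, 36 with spike-in scaling and 23 with a filter of 400. Naaa was at 0.45 with the mean over probe sets, and Mxd4 at -0.07 without suffixed probe sets, so the sign of both depends on the probe set. Of 184 named genes past 2-fold in the main setting, no other changed sign in an alternative that measured it. Of 183 measured there, 169 stayed past 2-fold with equal medians, 170 with quantile normalization and 149 with spike-in scaling. No paired analysis was possible because each time point has 1 array. Probe sets of a gene varied with an SD of 0.69 among the dimmest genes, so differences near 2-fold there are imprecise, and no array left out could be tried.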

Other observations

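Long noncoding RNAs were not in the lists and were looked at after their values were seen. Of 240 genes that RefSeq classes as lncRNA, 25 (10.4%) were lower by 2-fold or more and 11 (4.58%) higher by as much, against 14.4% and 2.32% of all genes. Among 13 host genes of small nucleolar RNAs (Gas5, Zfas1 and the Snhg genes), 5 were lower and none was higher. Snhg5 had signals of 1158, 192 and 144, Zfas1 3632, 1023 and 869, and Snhg3 1834, 530 and 448. Snhg6 had 6701, 7420 and 8861. Gas5 had 4573, 3779 and 5957 by its brightest probe set, but its 3 probe sets ran from -2.53 to 0.38 on the log2 scale. The hosts thus differed among themselves, and all but Gas5, Snhg1 and Snhg10 rested on 1 probe set. Norad, a cytoplasmic RNA that binds Pumilio proteins, had 5767, 2996 and 1142, and Tug1 2376, 1322 and 982.

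Gene length in the genome went with small differences. Of genes spanning 53.2 kb or more 16.8% were at least 2-fold lower, against 13.8%, 14.0% and 12.8% of the 3 groups of shorter genes in order of length. The share at least 4-fold lower was highest among genes of up to 10.0 kb, at 4.45%, against 3.58% of the longest. The median 0 h signal was 909 in the shortest group and 677 in the longest.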
